A study of Mus musculus with 11 samples.

Results

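The genes described here are 10 genes of apoptotic cell clearance by phagocytes: the TAM receptors *Mertk*, *Axl* and *Tyro3*, the ligands and bridging proteins *Gas6*, *Pros1* and *Mfge8*, the phosphatidylserine receptor *Timd4*, and the engulfment proteins *Elmo1*, *Dock2* and *Gulp1*. They were found by matching the RefSeq accession of each array probe to its gene symbol. The match found 9 of the 10 genes, with 16 probes, among the 19555 genes that were tested. *Tyro3* was not analysed here, because none of the matched probes carried its symbol. A filter on dim probes kept 15 of the 16 probes and all 9 matched genes.

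RNA of mouse microglia, the resident macrophages of the brain, was hybridised to 11 single-colour arrays. All mice were C57BL/6N without a transgene or deletion. A_FACS (2 arrays) was microglia sorted from brains of adult females and lysed without culture. NB_FACS (3 arrays) was microglia sorted in the same way from newborn mice. NB_Control (3 arrays) was newborn microglia that had grown for weeks in mixed flask cultures fed with L-929 conditioned medium, were shaken off the flask and were then kept for 1 day in medium with serum. NB_Stim (3 arrays) differed from NB_Control by the addition of human TGF-β1, IL-34 and CX3CL1, each at 100 ng/mL. The sorted groups had passed a gate for intermediate CD45 and high CX3CR1 and the cultured groups had not, so culture and way of isolation cannot be told apart between them. Likewise, age and sex cannot be told apart between A_FACS and NB_FACS. Comparing NB_Control with NB_FACS asks how the clearance genes stand after culture, and comparing NB_Stim with both asks whether the added brain signals alter that.

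Cells that die by apoptosis expose phosphatidylserine on their surface. GAS6 and protein S, the product of *Pros1*, bind this lipid with one end and a TAM receptor tyrosine kinase with the other, whereas MFG-E8 bridges the lipid to integrins and TIM-4, the product of *Timd4*, binds it directly. MERTK is the TAM receptor linked to uptake by resting tissue macrophages and AXL the one linked to inflamed or stimulated ones, and both clear dying cells in the brain. Downstream, ELMO1 and DOCK2 belong to the protein complexes that activate RAC and so drive the actin cup around the corpse, and GULP1 is an adaptor of engulfment receptors.

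Across arrays, between 66.8% and 80.5% of probes were well above background, and the 75th percentile of the signal lay between 173 and 315 arbitrary units on the 8 arrays of slide 1 and between 446 and 509 on the 3 arrays of slide 2, which held replicate 3 of each newborn group. Values below are log2 levels after quantile normalisation, so a difference of 1 is a doubling of the normalised signal. Differences were tested in limma over all genes, and "called" stands for a Benjamini-Hochberg adjusted p under 0.05. As the RNA came from whole cell preparations, fewer cells of a type and less RNA per cell cannot be told apart. Of the microglial marker genes, 9 of 10 were tested. Their summed linear level was 272950 to 296560 in A_FACS, 164090 to 188210 in NB_FACS, 37740 to 63656 in NB_Control and 139210 to 150440 in NB_Stim, and *Gpr34* was not well above background on any newborn array.

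The arrays read each gene through 1 to 3 short probes, and the genes with several probes are those in which the probes did not always move together. The first 30 bases of the probes on which the results turn are shown so that each value can be tied to the stretch of transcript it reads. All letters are in lower case because no base is singled out.
Mertk: tgtgtcctccactccttttgctgcagtcac
Gas6: gggctagaggggctggcagtttgcagcaga
Pros1: ttcaggggtgcatcagacgcttcgttgcca
Mfge8: tggttgacaggttggctgtgggacctctgc
Axl probe 1: aagtgtggactctggtgcctccagagaggc
Elmo1 probe 3: ttttccagggtggtcaagctgtcagacatc
Gulp1 probe 1: gtgacagtgatgtctccttccactgatatc
Gulp1 probe 2: atttatgatatgttacttaccagtttttaa
Gulp1 probe 3: tgaaataagaatggacagcttcttctggaa

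*Mertk* was the receptor with the clearest difference between groups. Its log2 level was 11.73 and 11.30 in the A_FACS replicates. It was 9.36, 9.60 and 9.36 in NB_FACS, 8.71, 8.89 and 8.81 in NB_Control, and 9.47, 9.09 and 9.24 in NB_Stim. Both adult arrays lay above all newborn arrays, and the 3 NB_Control arrays lay below all others. In NB_Control *Mertk* fell by 0.64 against NB_FACS (SE 0.16, a level 1.56-fold higher in NB_FACS, limma adjusted p = 0.0132), with differences of -0.68 within slide 1 and -0.55 within slide 2. With the cytokines the mean was 0.47 higher than in NB_Control (SE 0.16, adjusted p = 0.185), which did not pass the test although the arrays of both groups did not overlap, and this held under all 27 alternative settings. NB_Stim and NB_FACS differed by -0.17 (95% interval -0.53 to 0.19, adjusted p = 0.457). The difference between NB_Control and NB_FACS missed the limma threshold without NB_FACS replicate 2 (-0.56, adjusted p = 0.0575), without NB_Control replicate 1 (-0.59, adjusted p = 0.054) and with Tukey's test adjusted over genes (adjusted p = 0.0658).

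**Figure D1:**
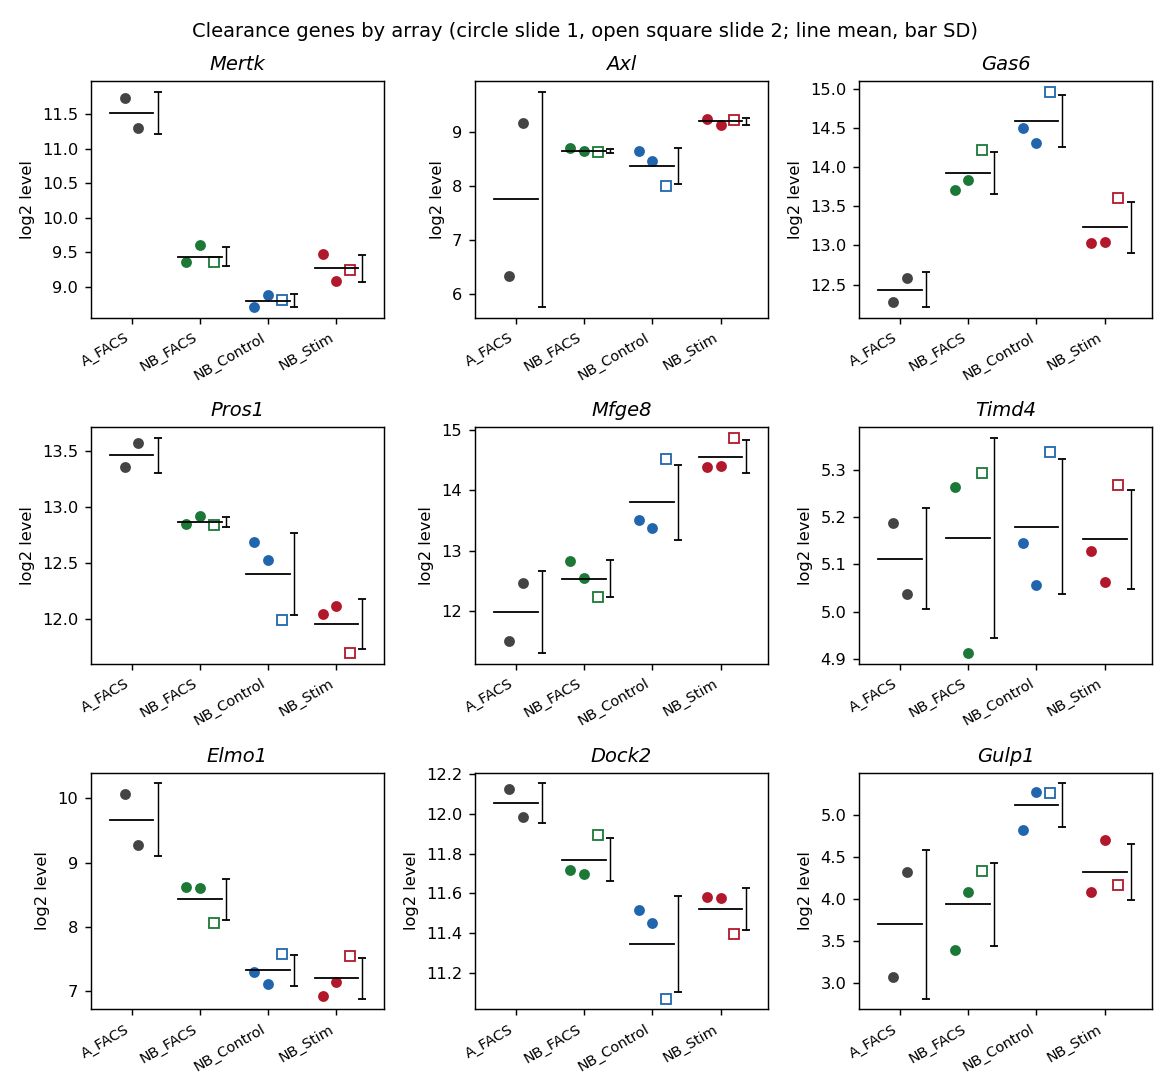
Log2 level (quantile normalised signal) of the 9 clearance genes on each array, one panel per gene, with the 4 groups on the horizontal axis. Points are arrays (circles slide 1, open squares slide 2), lines are group means and bars are SD. *Mertk* lay above 11 in both adult arrays and below 10 in all newborn arrays, and the adult values of *Axl* were 6.34 and 9.15.

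*Axl* did not differ between any pair of groups by the limma test, and its adult values disagreed. Its level was 6.34 and 9.15 in the A_FACS replicates, the widest gap of the 9 genes. It was 8.69, 8.64 and 8.61 in NB_FACS, 8.64, 8.46 and 7.99 in NB_Control, and 9.24, 9.12 and 9.21 in NB_Stim. All 3 NB_Stim arrays lay above all other newborn arrays. The mean was 0.83 higher in NB_Stim than in NB_Control (SE 0.55, limma adjusted p = 0.567), and 0.54 higher than in NB_FACS (SE 0.55, adjusted p = 0.492). The 4 groups share one estimate of the spread in this fit, and without either adult array the same differences had adjusted p = 0.0351 and 0.0394.

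Both *Axl* probes gave the gap between the adult arrays. Probe 1 read 8.87 and 12.30 in A_FACS, 11.91, 11.89 and 12.22 in NB_FACS, 11.56, 11.45 and 11.32 in NB_Control, and 12.28, 12.30 and 12.70 in NB_Stim. Probe 2 read 3.80, not well above background, and 6.003 on the adult arrays, and its newborn means were 5.29, 5.28 and 5.96 in NB_FACS, NB_Control and NB_Stim. The difference of *Axl* between A_FACS and NB_FACS was -0.90 (95% interval -2.27 to 0.47). It turned to 0.51 without A_FACS replicate 1 and was -2.31 without A_FACS replicate 2 (adjusted p = 0.000528), so its direction hung on 1 array.

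Because *Mertk* and *Axl* are read by different probes, their levels were not set against each other, but the log2 level of *Mertk* minus that of *Axl* on an array can be compared between groups. It was 5.39 and 2.14 in A_FACS. It was 0.67, 0.96 and 0.75 in NB_FACS, 0.07, 0.43 and 0.82 in NB_Control, and 0.23, -0.02 and 0.03 in NB_Stim. The adult arrays had the 2 highest values, and all NB_Stim arrays lay below all NB_FACS arrays. Over the 4 groups the exact permutation test of the F statistic gave p = 0.00104 (92400 arrangements). In pairs of newborn groups, the balance changed by -0.35 from NB_FACS to NB_Control (exact two-sided permutation p = 0.3), by -0.36 from NB_Control to NB_Stim (p = 0.2, exact) and by -0.72 from NB_FACS to NB_Stim (p = 0.1, exact). With 3 arrays a side the smallest p is 0.1, and the Benjamini-Hochberg value over the 3 pairs was 0.3 for each. Sign flips of the differences between arrays of the same replicate number gave p = 0.5, 0.5 and 0.25 in the same order, where 0.25 is the smallest p of this exact permutation.

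**Figure D2:**
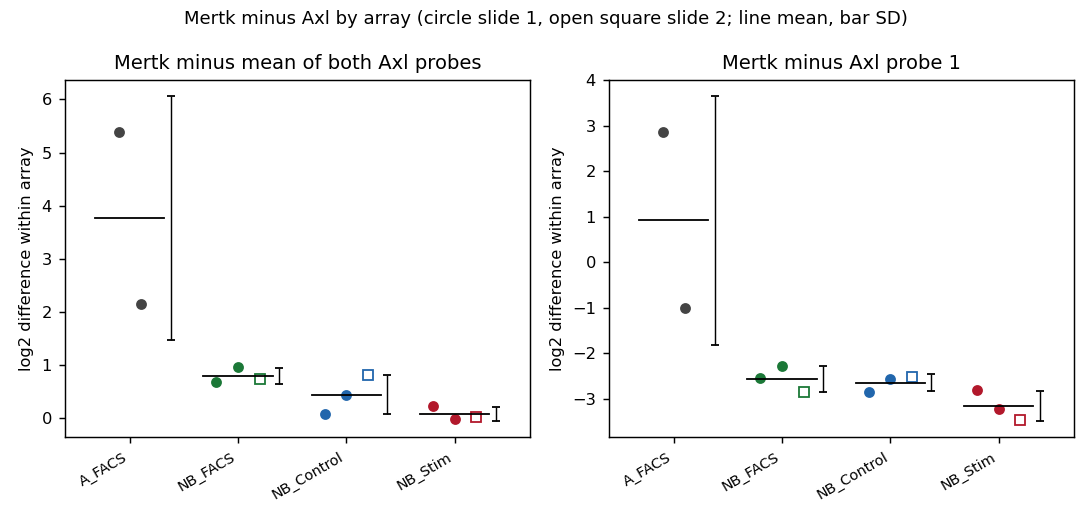
Log2 level of *Mertk* minus that of *Axl* on the same array, with *Axl* as the mean of both probes (left) or as probe 1 alone (right). Points are arrays (circles slide 1, open squares slide 2), lines are group means and bars are SD. The 2 adult arrays are highest in both panels and differ from each other by more than the newborn groups do.

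*Gas6*, the ligand of all TAM receptors, was lower in adult than in newborn sorted cells, where *Mertk* was higher, and fell with the cytokines. Its level was 12.28 and 12.59 in A_FACS. It was 13.70, 13.84 and 14.22 in NB_FACS, 14.49, 14.31 and 14.96 in NB_Control, and 13.04, 13.04 and 13.61 in NB_Stim. The 3 NB_Stim arrays lay below all other newborn arrays, and both adult arrays lay below these. *Gas6* fell by 1.36 from NB_Control to NB_Stim (SE 0.23, a level 2.56-fold higher in NB_Control, limma adjusted p = 0.0123), and the difference was -1.36 within slide 1 and -1.35 within slide 2. NB_Stim was also 0.69 below NB_FACS (SE 0.23, difference -0.69, adjusted p = 0.0468).

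The difference of *Gas6* between NB_Control and NB_FACS did not pass the test. NB_Control was 0.67 above NB_FACS (SE 0.23, limma adjusted p = 0.0559), with 0.63 within slide 1 and 0.74 within slide 2. With the replicate number as a block the same difference had adjusted p = 0.00333, and with the slide as a block 0.0017. It was called under 7 of 27 alternatives, namely both blocks, normexp background (0.66, adjusted p = 0.0329), an intensity trend in the fit (adjusted p = 0.0368), slide 1 alone (adjusted p = 0.0147), and leaving out NB_FACS replicate 3 (0.82, adjusted p = 0.0332) or NB_Stim replicate 3 (0.67, adjusted p = 0.0343). The difference between NB_Stim and NB_Control missed the threshold without NB_Stim replicate 1 (-1.26, adjusted p = 0.0626) and without NB_Stim replicate 2 (-1.27, adjusted p = 0.0615), and that between NB_Stim and NB_FACS did so under 14 of the 27 alternatives, among them leaving out any single array other than NB_Control replicate 3 or NB_Stim replicate 3 (adjusted p = 0.0517 to 0.146).

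*Pros1*, the gene of protein S, had its highest levels in sorted adult cells and its lowest in stimulated cultures. It was 13.35 and 13.57 in A_FACS, 12.84, 12.92 and 12.84 in NB_FACS, 12.68, 12.53 and 11.99 in NB_Control, and 12.04, 12.12 and 11.70 in NB_Stim. Between NB_FACS and NB_Stim *Pros1* fell by 0.92 (SE 0.19, difference -0.80 within slide 1 and -1.14 within slide 2, limma adjusted p = 0.00538), and this call held under all 27 alternatives. The steps between them did not pass the test by themselves. NB_Control minus NB_FACS was -0.47 (SE 0.19, adjusted p = 0.103, but 0.0366 with the replicate number as a block and 0.0246 with the slide as a block), and NB_Stim minus NB_Control was -0.45 (SE 0.19, adjusted p = 0.311).

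*Mfge8*, the gene of the bridge to integrins, rose in culture. Its level was 11.50 and 12.46 in A_FACS, 12.83, 12.55 and 12.23 in NB_FACS, 13.50, 13.38 and 14.53 in NB_Control, and 14.40, 14.41 and 14.88 in NB_Stim. All 6 cultured arrays lay above all 5 sorted arrays. *Mfge8* rose by 1.26 from NB_FACS to NB_Control (SE 0.35, 2.40-fold, limma adjusted p = 0.0196) and by 2.03 from NB_FACS to NB_Stim (SE 0.35, 4.07-fold, adjusted p = 0.00158). NB_Stim minus NB_Control was 0.76 (SE 0.35, adjusted p = 0.337). The first of these rises was unequal between slides, 0.75 within slide 1 and 2.30 within slide 2, and missed the threshold in 6 of 27 alternatives, among them leaving out NB_Control replicate 3 (0.90, adjusted p = 0.0546), NB_FACS replicate 2 (1.27, adjusted p = 0.0552) or NB_FACS replicate 3 (1.11, adjusted p = 0.0569). The rise to NB_Stim was 1.71 within slide 1 and 2.65 within slide 2 and kept its call under all 27.

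*Timd4*, a receptor of peritoneal and other resident macrophages, was near the dim end of the arrays. Its group means lay between 5.11 and 5.18, the arrays of all groups overlapped, and it was called in 0 of the 6 comparisons by limma, and in 0 of them was its unadjusted p under 0.05. Its kept probes differed in direction between A_FACS and NB_FACS, 0.57 and -0.66. A further probe was not well above background on any array and was left out.

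*Elmo1* fell in culture and was highest in adult cells. Its level, the mean of 3 probes, was 10.07 and 9.27 in A_FACS, 8.63, 8.60 and 8.06 in NB_FACS, 7.29, 7.10 and 7.58 in NB_Control, and 6.92, 7.14 and 7.55 in NB_Stim. Every sorted array lay above every cultured array. It fell by 1.11 from NB_FACS to NB_Control (SE 0.26, a level 2.15-fold higher in NB_FACS, limma adjusted p = 0.00958; difference -1.42 within slide 1 and -0.49 within slide 2). It fell by 1.23 from NB_FACS to NB_Stim (SE 0.26, adjusted p = 0.00547), also unequally, by a difference of -1.58 within slide 1 and -0.51 within slide 2. The 3 probes gave -0.81, -1.20 and -1.31 for NB_Control minus NB_FACS. For NB_Stim minus NB_Control probes 2 and 3 gave 0.10 and 0.40, and only the measured signal of probe 1 was lower in NB_Stim. The mean of the 3 probes, -0.12 (SE 0.26, adjusted p = 0.918), has no settled sign.

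*Dock2*, the partner of ELMO1 in blood cells, was not called between newborn groups. It was 12.13 and 11.98 in A_FACS, 11.72, 11.70 and 11.89 in NB_FACS, 11.52, 11.45 and 11.07 in NB_Control, and 11.58, 11.58 and 11.40 in NB_Stim. NB_Control minus NB_FACS was -0.42 (SE 0.15, limma adjusted p = 0.0578), and the arrays of these groups did not overlap. It was called under 5 of 27 alternatives. These were the replicate number or the slide as a block (adjusted p = 0.0438 or 0.0305), normexp background (adjusted p = 0.037), an intensity trend in the fit (adjusted p = 0.036) and Tukey's test per gene (adjusted p = 0.0496). NB_Stim minus NB_FACS was -0.25 (SE 0.15, adjusted p = 0.242).

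*Gulp1* was read by probes that went in opposite directions. As the mean of 3 probes it was 3.08 and 4.32 in A_FACS, 3.39, 4.08 and 4.34 in NB_FACS, 4.82, 5.27 and 5.25 in NB_Control, and 4.08, 4.69 and 4.17 in NB_Stim. The NB_Control arrays were highest, and NB_Control minus NB_FACS was 1.18 (SE 0.35, limma adjusted p = 0.0281). Probe 1 was not well above background on any NB_FACS array and probe 2 on only 1 of the 3, so no size is given for these probes, whose measured signal was higher in NB_Control. Probe 1 passed the filter on dim probes only through NB_Control, and probe 2 only through NB_Control and NB_Stim. Their signal was highest in NB_Control, so the call of the mean is no support for a rise of the gene. Probe 3 was well above background on all arrays and was 0.42 lower in NB_Control, a difference of -0.42. The call was lost in 11 of 27 alternatives, among them the stricter filter on dim probes (0.93, adjusted p = 0.0854), and leaving out NB_FACS replicate 1 (0.91, adjusted p = 0.106), NB_FACS replicate 2 (1.25, adjusted p = 0.0585), NB_Control replicate 2 (1.10, adjusted p = 0.0891) or NB_Control replicate 3 (1.11, adjusted p = 0.077) was enough to lose it.

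**Figure D3:**
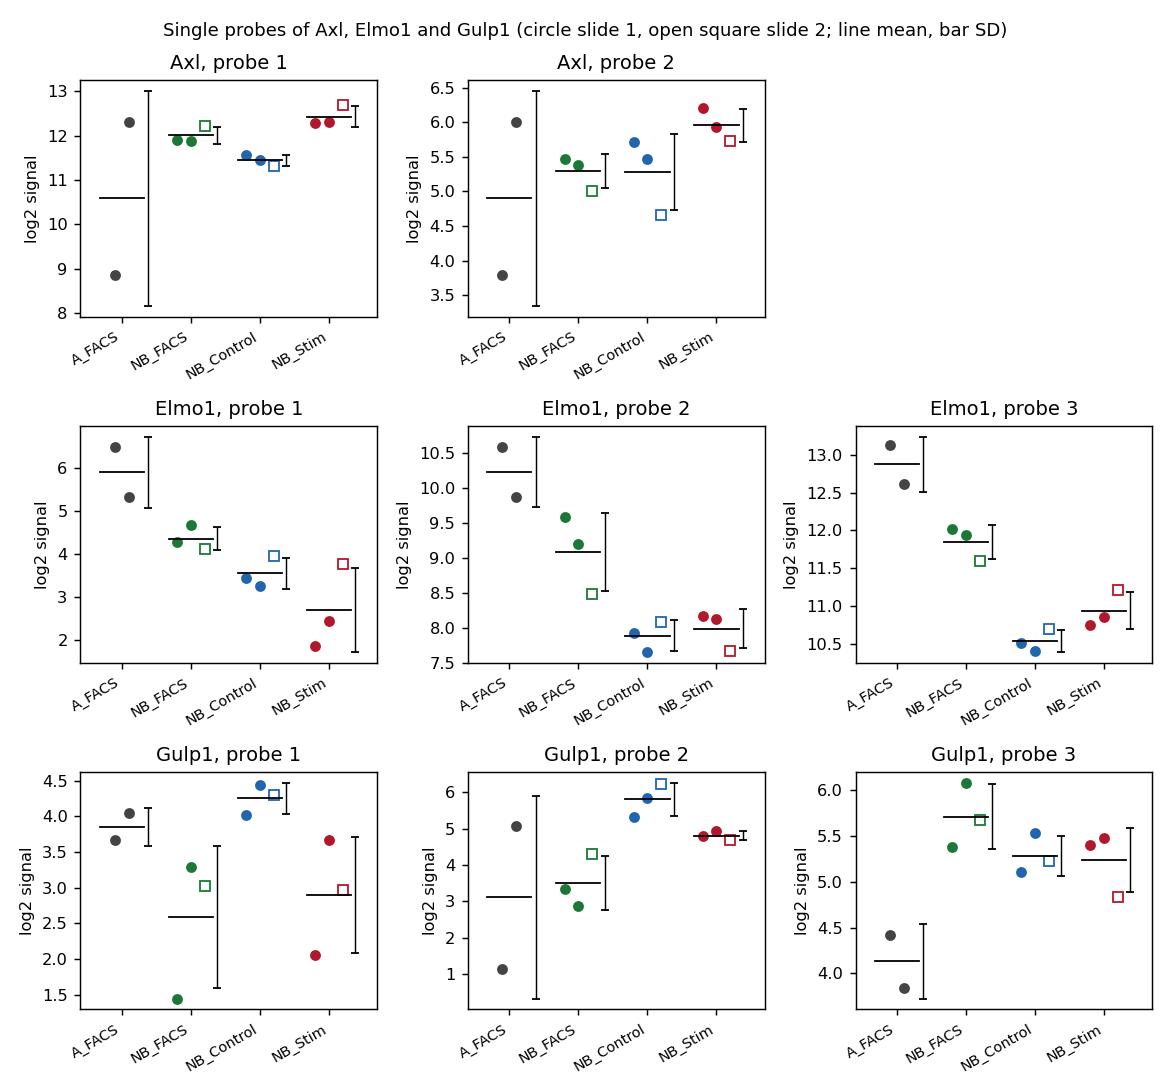
Log2 signal of the single probes of *Axl* (top), *Elmo1* (middle) and *Gulp1* (bottom) on each array, with the 4 groups on the horizontal axis. Points are arrays (circles slide 1, open squares slide 2), lines are group means and bars are SD. The measured signal of *Gulp1* probes 1 and 2 is higher in NB_Control than in NB_FACS whereas probe 3 is lower.

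Counted together, the clearance genes called in culture were split between rises and falls. Of the 9 tested, 4 were called between NB_Control and NB_FACS, with *Mfge8* and *Gulp1* higher and *Mertk* and *Elmo1* lower. The call of *Gulp1* rested on the 2 probes that were dim in NB_FACS and passed the filter only through cultured groups. Its probe 3, well above background on all arrays, differed by -0.42, so *Gulp1* is counted here without being read as a rise. Of all 19555 genes 29.7% were called in this comparison, and the median difference was -0.28 over the 9 genes and 0.09 over all genes. The count was 7 with the replicate number as a block or with the slide as a block, 2 without NB_Control replicate 3, 1 without NB_FACS replicate 2 and 5 at most when an array was left out. The share of all genes called moved too. It was 37.5% with the replicate block, 39% with the slide block, 27.2% without NB_Control replicate 3 and 23.1% without NB_FACS replicate 2. On leaving out a newborn array it ranged from 23.1% to 33%. Between NB_Stim and NB_FACS 4 of 9 were called, *Mfge8* higher and *Gas6*, *Pros1* and *Elmo1* lower, where 31.1% of all genes were called. Here the median was -0.17 over the 9 genes and 0.11 over all genes.

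The cytokines moved 1 of the 9 genes by the limma test, *Gas6*, which was lower, where 3.41% of all genes were called. The median difference of NB_Stim minus NB_Control was -0.03 over the 9 genes and -0.000761 over all genes. Leaving out NB_Stim replicate 1 or 2 brought the count to 0, and leaving out either adult array brought it to 2 with *Axl* as the added gene. Over all genes the share called in NB_Stim minus NB_Control was 1.55% without NB_Stim replicate 1 and 1.63% without NB_Stim replicate 2. The groups NB_Control and NB_FACS each enter 2 of the 3 newborn comparisons, so the 3 sets of differences are not independent.

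**Figure D4:**
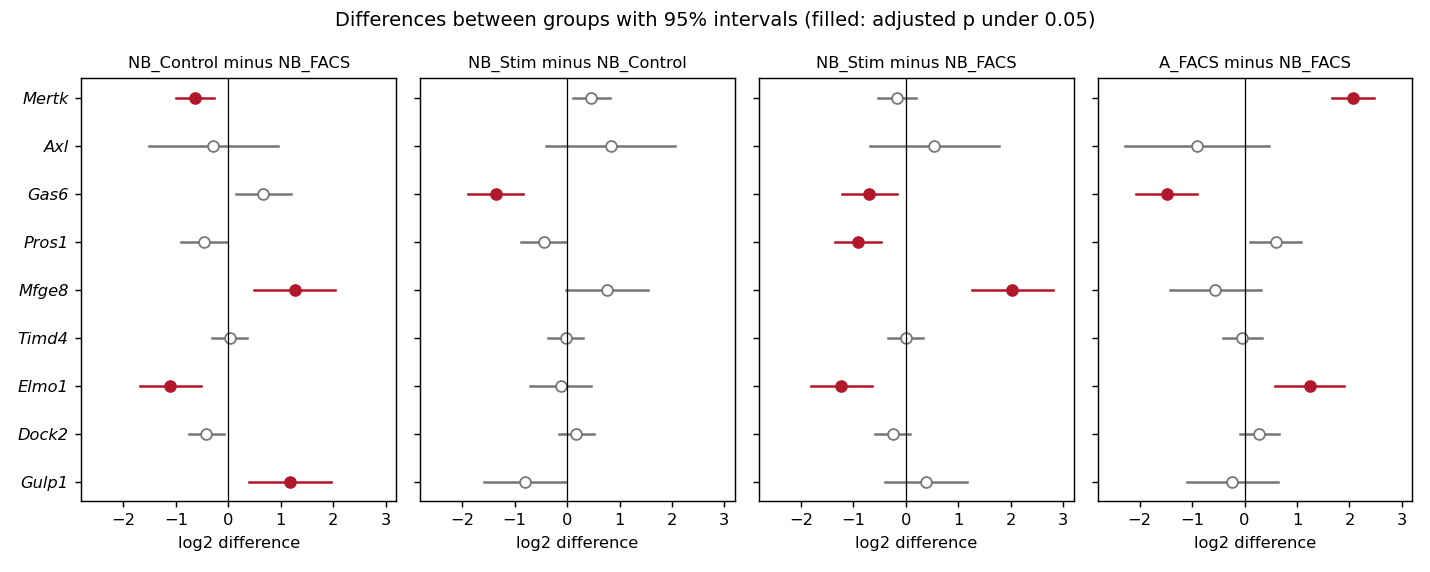
Log2 difference between groups for the 9 clearance genes in 4 comparisons, with 95% confidence intervals of the limma fit. Filled red points have an adjusted p under 0.05. *Gas6* is the only filled point of NB_Stim minus NB_Control, and *Mertk*, *Gas6* and *Elmo1* are filled for A_FACS minus NB_FACS.

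Between sorted adult and sorted newborn microglia 3 of the 9 genes were called, where 22.7% of all genes were. *Mertk* was 2.07 higher in adult cells (SE 0.18, 4.20-fold, limma adjusted p = 7.23e-05) and stayed called under all 27 alternatives, with differences from 1.86 to 2.29. *Gas6* was lower by a difference of -1.49 (SE 0.26, a level 2.80-fold higher in newborn cells, adjusted p = 0.00307), also called under all 27. *Elmo1* was 1.24 higher (SE 0.29, adjusted p = 0.0137), but 0.84 without A_FACS replicate 1, which leaves 1 adult array. This mean holds probe 1, which passed the filter on dim probes only through A_FACS. By probes 2 and 3, well above background on all arrays, *Elmo1* was 1.14 and 1.03 higher. *Pros1* was 0.59 higher (SE 0.22, adjusted p = 0.0784), with an adjusted p of 0.046 with the slide as a block and 0.0304 without NB_Control replicate 3. With slide 1 alone, *Pros1* and *Dock2* were called too, which made 5, where 32.9% of all genes were called. The median was -0.04 over the 9 genes and -0.01 over all genes, and A_FACS had no array on slide 2.

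Against cultured cells the adult group differed in most of these genes. Of the 9, 7 were called between A_FACS and NB_Control (4 higher, 3 lower), where 40.8% of all genes were, and 6 between A_FACS and NB_Stim (4 higher, 2 lower), where 40.2% of all genes were. *Mertk*, *Pros1*, *Elmo1* and *Dock2* were higher in adult cells in both, and *Gas6* and *Mfge8* lower in both. *Gulp1* was counted as lower against NB_Control only (-1.41, limma adjusted p = 0.0159). Its probes 1 and 2 passed the filter only through cultured groups and were well above background on 1 of 2 adult arrays each. The call of the mean is therefore no support for a difference. Probe 3, well above background on all arrays, had means of 4.13 in A_FACS and 5.28 in NB_Control. *Mertk* differed by 2.71 from NB_Control and by 2.24 from NB_Stim (SE 0.18 each), and *Mfge8* by -1.82 and -2.58 (SE 0.39 each). *Elmo1* differed by 2.35 and 2.47 (SE 0.29 each), but this mean holds probe 1, which passed the filter on dim probes only through A_FACS. Its probes 2 and 3 had means of 10.2 and 12.9 in A_FACS, 7.9 and 10.5 in NB_Control, and 8.0 and 10.9 in NB_Stim. Without A_FACS replicate 1 the calls of *Mfge8*, *Dock2* and *Gulp1* against NB_Control were lost (limma adjusted p = 0.0553, 0.0597 and 0.177). Against NB_Stim the call of *Gas6* (-0.79) was lost without A_FACS replicate 1, A_FACS replicate 2 or NB_Stim replicate 3 (adjusted p = 0.0586 to 0.207), and that of *Dock2* (0.53) without either A_FACS array or any NB_Stim array (adjusted p = 0.0532 to 0.157). The adult arrays are shared by both comparisons.

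Markers of other cell types moved along with culture. Of 9 tested fibroblast and mural cell markers, 7 were called higher in NB_Control than in NB_FACS, and their summed linear level was 2305 to 2432 in NB_FACS, 44867 to 53094 in NB_Control, 25856 to 57213 in NB_Stim and 6050 to 8809 in A_FACS. *Tagln*, a smooth muscle protein gene, rose from a log2 level of 7.65 to 14.31. All 9 were well above background on all NB_Control arrays. Markers of border macrophages, the macrophages of the meninges and vessels, summed to 12363 to 15192 in NB_FACS, 44441 to 87795 in NB_Control, 19394 to 32819 in NB_Stim and 522 to 1015 in A_FACS, with 3 of 10 called higher and 4 lower in NB_Control than in NB_FACS. The part of these cells in the differences of *Mfge8*, *Gas6* and *Pros1* was not tested.

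The summed erythroid and endothelial markers were highest in sorted cells, whereas some oligodendrocyte and astrocyte transcripts were higher in culture. Erythroid markers summed to 148840 to 205000 in NB_FACS, 8566 to 25363 in A_FACS and 176 to 282 in the cultured groups, and 4 of the 6 tested were called lower in NB_Control. Endothelial markers summed to 6519 to 13083 in A_FACS, 4960 to 6735 in NB_FACS, 1040 to 1143 in NB_Control and 2089 to 2476 in NB_Stim, with *Tek*, *Emcn* and *Slco1a4* not well above background on any cultured array. Of the 10 tested, 5 were called lower in NB_Control than in NB_FACS. In NB_Stim against NB_FACS 5 were called lower and 1, *Flt1*, higher (1.41, limma adjusted p = 0.00434). Oligodendrocyte markers summed to 575 to 620 in A_FACS, 658 to 706 in NB_FACS, 935 to 1473 in NB_Control and 1416 to 4019 in NB_Stim. Of the 6 tested, *Mbp* was called higher in NB_Control than in NB_FACS, and *Mbp*, *Olig1*, *Olig2* and *Pdgfra* were in NB_Stim. Astrocyte markers summed to 974 to 1387 in A_FACS, 2545 to 2804 in NB_FACS, 3548 to 3874 in NB_Control and 3041 to 4221 in NB_Stim, with 2 of 9 (*Gfap* and *Aldoc*) called higher in NB_Control than in NB_FACS and 3 of 9 in NB_Stim. Of all genes 15.8% and 16% were called higher in these comparisons. In NB_Control minus NB_FACS the median of the astrocyte list was 0.16 against 0.09 over all genes. *Slc1a3* (-1.32) and *Sox9* (-1.06) were lower there but not called. The part of any of these marker transcripts in the results in culture was not tested. Neuronal markers (10 tested) summed to at most 5688 and neutrophil markers (6 tested) to at most 5103 on any array. Between NB_Stim and NB_Control, the comparison in which *Gas6* was called, 4 of 9 microglial markers were called, all higher, where 3.41% of all genes were called. Of the other lists, 1 of 10 endothelial markers (*Flt1*, higher), 1 of 9 fibroblast markers (*Col3a1*, lower) and 1 of 10 border macrophage markers (*Mrc1*, lower) were called. None of the astrocyte, oligodendrocyte, neuronal, erythroid or neutrophil markers was.

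Of the wider clearance pathway, other receptors and bridging proteins for apoptotic cells were called in both directions in culture. Of 31 listed genes 26 were tested, and 8 were higher and 3 lower in NB_Control than in NB_FACS, 42.3% of those tested. Of all genes 29.7% were called, 15.8% higher and 13.9% lower. The median was 0.17 over the list and 0.09 over all genes. *Anxa1*, the gene of a phosphatidylserine-binding annexin, rose by 6.31 (SE 0.53, limma adjusted p = 2.13e-05) and the scavenger receptor gene *Cd36* by 4.36 (adjusted p = 2.57e-06). The receptor genes *Scarf1* and *Havcr2* fell by 1.14 and 0.65 (adjusted p = 0.0255 and 0.00418), with *Scarf1* well above background on only 1 of 3 NB_Control arrays. With the cytokines 2 were higher and 4 lower than in NB_Control, 23.1% of those tested against 3.41% of all genes. The integrin subunit gene *Itgb5* rose by 1.80 (adjusted p = 0.000428) and *Havcr2* by 0.64 (adjusted p = 0.0292), whereas *Stab2* and *Cd36*, both genes of scavenger receptors, fell by 3.27 (adjusted p = 0.00333) and 3.18 (adjusted p = 0.000209). *Stab2* was well above background on 2 of 3 NB_Stim arrays.

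Against NB_FACS, 7 of these receptors and bridging proteins were higher and 1 lower in NB_Stim, 30.8% of those tested, near the 31.1% of all genes. The rises were led by *Anxa1* (5.42, limma adjusted p = 5.51e-05) and the scavenger receptor gene *Msr1* (2.77, adjusted p = 1.51e-05). *Cd300a*, an inhibitory receptor gene, was the 1 that was lower (difference -0.47, adjusted p = 0.0274). In adult against newborn sorted cells 5 were higher and 5 lower, 38.5% against 22.7% of all genes. The integrin genes *Itgb2* (1.58, adjusted p = 0.00109) and *Itgb5* (1.18, adjusted p = 0.00167) had the largest rises, and *Lgals3*, the gene of galectin-3 (difference -2.56, adjusted p = 0.00167), and *Anxa1* (difference -2.05, adjusted p = 0.0319) the largest falls.

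In the cytoskeletal machinery of engulfment more of the called genes were lower than higher. Of 27 listed genes 23 were tested, and 2 were higher and 7 lower in NB_Control than in NB_FACS, 39.1% of those tested against 29.7% of all genes, with a median of -0.20 against 0.09 over all genes. The genes of the RAC activator *Dock5* and the focal adhesion kinase *Ptk2* rose by 2.62 (limma adjusted p = 5.24e-05) and 0.96 (adjusted p = 0.000858), and *Vav2*, a further exchange factor gene, and *Rac2* fell by 1.06 (adjusted p = 0.00163) and 0.85 (adjusted p = 0.0306). Between NB_Stim and NB_Control 0 of the 23 were called by limma (3 had an unadjusted p under 0.05), where 3.41% of all genes were called. NB_Stim minus NB_FACS had 2 higher (*Dock5*, 2.17, and *Ptk2*, 0.83) and 5 lower, led by *Rac2* (-1.42) and the adaptor gene *Crk* (-0.81). In adult cells 4 were higher than in NB_FACS, led by *Abl1* (1.04) and *Dock5* (1.02), and *Dock1* was lower (difference -0.47, adjusted p = 0.0193). The shares called were 30.4% in NB_Stim minus NB_FACS and 21.7% in A_FACS minus NB_FACS, near the 31.1% and 22.7% of all genes.

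Genes around the TAM receptors, such as sheddases, the vitamin K cycle that γ-carboxylates GAS6 and protein S, and signalling partners, were called in both directions in culture. Of 15 tested, 2 were higher and 2 lower in NB_Control than in NB_FACS, 26.7% against 29.7% of all genes, with a median of 0.11 against 0.09. *Twist2*, a repressor gene downstream of AXL, was called higher (limma adjusted p = 1.26e-05), but it was not well above background on any sorted array, so no size is given. It passed the filter on dim probes only through the cultured groups, where its signal was highest, so its calls against NB_FACS are no support for a rise. *Adam10*, a sheddase gene, was lower (difference -0.47, adjusted p = 0.0101). The phospholipase gene *Plcg2* fell by 0.60 (adjusted p = 0.0283). With the cytokines *Adam10* rose by 0.71 (adjusted p = 0.00856) and *Plcg2* by 0.77 (adjusted p = 0.0467), and *Twist2* fell by 1.90 (adjusted p = 0.0273). Against NB_FACS, 5 were higher and 2 lower in NB_Stim. *Twist2* was again counted among the higher, with the same limit, and *Vkorc1*, the vitamin K reductase gene, was up by 1.28 (adjusted p = 0.00135). *Grb2* and *Vkorc1l1* were lower (-0.43 and -0.35). In adult cells 2 were higher than in NB_FACS, *Pik3r1* (1.25, adjusted p = 0.0282) and *Ifnar2* (0.88, adjusted p = 0.0184). The share called was 20% in NB_Stim minus NB_Control, against 3.41% of all genes. It was 46.7% in NB_Stim minus NB_FACS and 13.3% in A_FACS minus NB_FACS, against 31.1% and 22.7%.

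Nuclear receptors and sterol efflux genes, which respond to the lipid load of an engulfed cell and of which the LXR and RXR receptors are known to raise *Mertk*, were called in both directions. Of 12 tested, 3 were higher and 2 lower in NB_Control than in NB_FACS, 41.7% against 29.7% of all genes, with a median of 0.20 against 0.09. *Pparg* rose by 3.49 (limma adjusted p = 0.00294) and *Nr1h3*, the LXRα gene, by 1.87 (adjusted p = 0.00679), while the efflux pump gene *Abcg1* and *Mylip*, which marks the LDL receptor for degradation, fell by 2.35 (adjusted p = 5.64e-05) and 0.74 (adjusted p = 0.0143). With the cytokines 3 rose, among them *Abcg1* by 1.57 (adjusted p = 0.00524) and *Mylip* by 1.04 (adjusted p = 0.0171), and *Pparg*, well above background on 2 of 3 NB_Stim arrays, fell by 4.59 (adjusted p = 0.00489). Against NB_FACS 3 were higher in NB_Stim, led by *Rxra* (1.41, adjusted p = 1.89e-05) and *Ucp2* (0.68, adjusted p = 0.00262), and *Abcg1* was lower (-0.78, adjusted p = 0.0265). In adult cells 4 were higher, led by *Ucp2* (1.00) and *Mylip* (0.94), and *Pparg* (-2.75, well above background on 1 of 2 A_FACS arrays) and *Abcg1* (-1.33) were lower. The share called was 33.3% in NB_Stim minus NB_Control, against 3.41% of all genes. It was 33.3% in NB_Stim minus NB_FACS and 50% in A_FACS minus NB_FACS, against 31.1% and 22.7%.

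Receptors for find-me signals, inhibitory checks and genes of phosphatidylserine exposure were called in both directions. Of the 20 tested 7 were higher and 7 lower in NB_Control than in NB_FACS, 70% against 29.7% of all genes, with a median of -0.25 against 0.09. The sphingosine-1-phosphate receptor gene *S1pr2* (3.03, limma adjusted p = 2.59e-05) and the scramblase gene *Ano6* (1.77, adjusted p = 2.17e-05) rose most, and the microglial genes *P2ry12* (-6.44, adjusted p = 1.02e-06) and *Siglech* (-5.58, adjusted p = 1.59e-07) fell most. With the cytokines *Cx3cr1*, the receptor gene of one of the added proteins, rose by 4.03 (adjusted p = 0.00221), and the channel gene *Panx1* and the inhibitory receptor gene *Sirpa* fell by 1.08 and 0.64 (adjusted p = 0.0203 and 0.0369). NB_Stim minus NB_FACS had 6 higher, led by *S1pr2* (2.43) and *S1pr1* (1.50), and 8 lower, led by *P2ry12* (-5.41) and *Siglech* (-5.18). In adult cells *Siglech* (1.33) and *P2ry12* (1.22) led 4 that were higher, and *Cd24a* (-3.00) and *S1pr2* (-1.12) led 3 that were lower. The share called was 15% in NB_Stim minus NB_Control, against 3.41% of all genes. It was 70% in NB_Stim minus NB_FACS and 35% in A_FACS minus NB_FACS, against 31.1% and 22.7%.

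Of the genes for LC3-associated phagocytosis and phagosome maturation 20 were tested, and 9 were higher and 1 lower in NB_Control than in NB_FACS, 50% against 29.7% of all genes, with a median of 0.38 against 0.09. *Cybb*, a subunit of the phagosomal NADPH oxidase, rose by 4.62 (limma adjusted p = 0.000644) and *Rubcn*, the gene of Rubicon, by 1.52 (adjusted p = 2.35e-05), while the oxidase subunit gene *Ncf1* fell by 0.71 (adjusted p = 0.00158). With the cytokines *Ncf1* rose by 0.56 (adjusted p = 0.0369) and *Ncf4* fell by 0.77 (adjusted p = 0.00885). NB_Stim minus NB_FACS had 8 higher, led by *Cybb* (4.36) and *Rubcn* (1.24), and 3 lower, among them *Uvrag* (-0.77). In adult cells 5 were higher, led by *Ncf4* (0.89), and *Cyba* was lower (-0.51). The share called was 10% in NB_Stim minus NB_Control, against 3.41% of all genes. It was 55% in NB_Stim minus NB_FACS and 30% in A_FACS minus NB_FACS, against 31.1% and 22.7%.

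**Figure D5:**
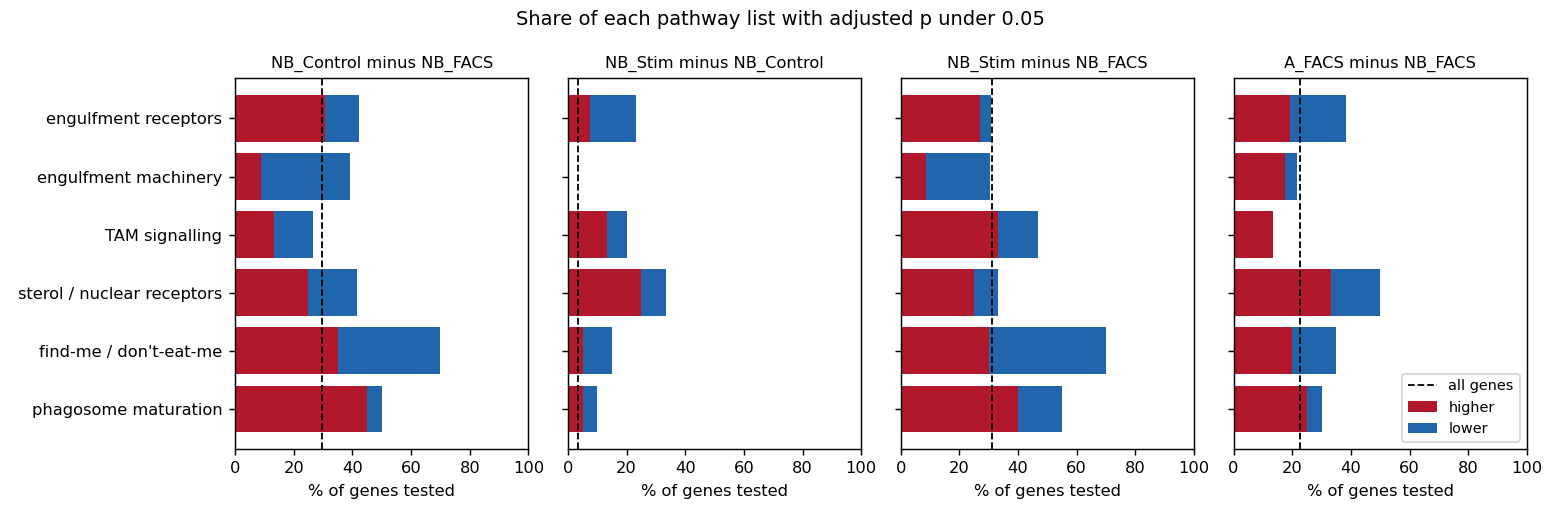
Share of the tested genes of each pathway list with a limma adjusted p under 0.05, higher (red) or lower (blue) in the first group, in 4 comparisons. The dashed line is the share among all 19555 genes, 29.7%, 3.41%, 31.1% and 22.7% from left to right. Engulfment machinery has no bar for NB_Stim minus NB_Control.

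The genes whose log2 levels followed *Mertk* most closely over the 11 arrays were *Bco2* (Pearson r = 0.988), *Cfap74* (r = 0.988) and *Il13ra1* (r = 0.986). For *Axl* they were *Kcnh2* (r = 0.968), *Aplp1* (r = 0.927) and *Ppp2r2c* (r = 0.912), and for *Gas6* *Gnpda1* (r = 0.977), *C5ar1* (r = 0.970) and *Lamtor3* (r = 0.968). These values are descriptions of the highest among all genes tested, and the 11 arrays share 4 groups and 2 slides. *Il13ra1* had means of 11.31 in A_FACS and 10.20, 9.72 and 10.16 in NB_FACS, NB_Control and NB_Stim.

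The 250 bases before the annotated start of *Mertk* and of *Gas6*, the receptor and the ligand that differed in opposite directions between adult and newborn sorted cells, are given from RefSeq on build GRCm38.p6, with 3 motifs in capitals: CAGAC, which SMAD proteins of the TGF-β pathway bind, AGGTCA, the core repeat of nuclear receptor elements, and GGGCGG, the GC box. Both strands were searched, and no 2 motifs overlapped in the members' windows. *Mertk* lies on the plus strand, and the window is chr2:128698665-128698914. *Gas6* lies on the minus strand, and the window is chr8:13494536-13494785, written as the gene reads.
Mertk: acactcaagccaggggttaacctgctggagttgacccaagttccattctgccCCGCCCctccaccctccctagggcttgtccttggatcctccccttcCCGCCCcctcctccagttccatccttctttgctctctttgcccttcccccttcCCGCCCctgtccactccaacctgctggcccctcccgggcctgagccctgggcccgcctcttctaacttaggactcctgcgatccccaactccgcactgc
Gas6: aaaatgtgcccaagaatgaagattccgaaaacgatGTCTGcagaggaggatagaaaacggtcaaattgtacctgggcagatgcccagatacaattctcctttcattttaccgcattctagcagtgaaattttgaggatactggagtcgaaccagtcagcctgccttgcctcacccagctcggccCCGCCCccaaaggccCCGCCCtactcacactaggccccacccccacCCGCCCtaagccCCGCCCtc

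All capitals in the *Mertk* window are its 3 GC boxes. The *Gas6* window holds 4 GC boxes and, farther from the start, 1 CAGAC on the opposite strand. All 10 clearance genes had an entry, 11 windows in all since *Elmo1* has 2 starts. CAGAC was in 5 of these windows and in 42.2% of the 32851 windows of all genes, AGGTCA in 1 and 14.0%, and GGGCGG in 8 and 32.7%. A match of letters is a description and no binding was measured.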

How the data were processed

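The deposited scanner files give a signal intensity per spot in arbitrary units. Per the file headers and labels it was made with Feature Extraction 11.5.1.1, which subtracts a fitted spatial surface. The authors also deposited these intensity values as a table of the whole series, in which 0 of 62927 entries differed from the scanner files (relative tolerance 1e-05), so no normalisation between arrays had been applied. No spot was saturated. Here log2 values were quantile normalised in limma 3.58.1 (R 4.3.3), as the study's methods state for its arrays. Spots of a probe were averaged without those flagged as outliers, and a probe stayed in if at least 1 group had it well above background on all its arrays, which left 44727. The symbols came from a RefSeq table (GRCm38.p6, names only) that matched 36264 of 60037 probes (60.4%). Kept probes with a symbol were averaged to 19555 genes.

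Each gene was fitted with 1 mean per group (7 residual and 2.69 prior degrees of freedom), and the 6 pairwise comparisons were tested two-sided with limma's moderated test, with Benjamini-Hochberg adjustment over all genes. Calls needed an adjusted p under 0.05. The number of arrays limits the precision. The study counts its samples as independent biological replicates, although the labels do not name animals or cultures. The gene set and the pathway and marker lists were chosen with earlier results of these data known. Named from each pathway list were up to 2 genes with the largest rise and fall among those called (some items that this rule names are not reported here), and for *Mertk*, *Axl* and *Gas6* the 3 genes with the highest correlation. Replicate numbers were taken to pair the newborn samples. In the replicate block the adult replicates 1 and 2 also shared a block with the newborn replicates of the same number. The labels state none of these pairs. The deviations of all 9 same-numbered newborn pairs from their group means correlated at 0.112 to 0.489. Pairs of replicates 1 and 2 with unlike numbers correlated at 0.185 to 0.364, and pairs of replicate 3 with replicate 1 or 2 at -0.448 to -0.184. As replicate 3 was on slide 2, these values do not tell pairing from slide. Slide and scan coincided. Alternatives covered scaling, background, filter, probe summary, blocks, the test and leaving out arrays. Files were read with data.table (version 1.17.8) and figures drawn with matplotlib 3.10.9.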

Additional observations from a re-analysis of the deposited data

How the results depend on the processing

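Each result was recomputed under up to 27 alternatives. Among these, the series table after quantile normalisation repeated the main values, so it could not change a result. For *Mertk*, *Gas6*, *Pros1*, *Mfge8* and *Dock2*, read by 1 probe each, the brightest probe and the median over probes left the log2 differences as they were. Between NB_Control and NB_FACS, 4 genes were called, 7 with the replicate block, 7 with the slide as a block, 2 with cultured replicates 1 and 2 averaged, 3 with the methods' Tukey test per gene, 0 with that test further adjusted over genes, which the methods do not state, and 1 to 5 when an array was left out. NB_Stim minus NB_Control had 1, then 0 with these cultured replicates averaged, 0 with Tukey's test adjusted over genes and 0 to 2 when an array was left out. NB_Stim minus NB_FACS had 4, 2 with that Tukey test and 3 to 4 on leaving out an array. A_FACS minus NB_FACS had 3, 5 on slide 1 alone and 2 to 4 on leaving out an array. Both comparisons of A_FACS with cultured cells stayed within 1.5 times (5 to 8 of 7, and 4 to 6 of 6, on leaving out an array). Over all genes, NB_Stim minus NB_Control had 666 calls, 1193 with the replicate block, 1476 with the slide as a block, 118 with the cultured replicates averaged, 1009 with normexp background, 1032 on slide 1 alone, 1590 with Tukey's test unadjusted over genes, 183 with it adjusted, and 304 to 337 without NB_Control or NB_Stim replicate 1 or 2. The other comparisons kept their counts within 1.5 times except with Tukey's test adjusted over genes (2014 of 4434 for A_FACS minus NB_FACS, 3547 of 5811 for NB_Control minus NB_FACS, 3620 of 6082 for NB_Stim minus NB_FACS, 4881 of 7982 and 4654 of 7869 for A_FACS minus NB_Control and NB_Stim), without A_FACS replicate 1 (2456, 5188 and 4890 for A_FACS minus NB_FACS, NB_Control and NB_Stim) and, for A_FACS minus NB_FACS, with only the 2 groups compared (2923). The replicate block changed no other call of a single gene than those of *Gas6*, *Pros1* and *Dock2* given above. For *Mertk* minus *Axl*, p ranged from 0.000794 to 0.00571 on leaving out an array, and the sign flips of the replicate block for NB_Stim minus NB_Control gave p = 0.5 (smallest possible 0.25, exact permutation).

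Some differences that did not pass the test changed sign. *Elmo1* in NB_Stim minus NB_Control became 0.15 with normexp background, 0.25 with the stricter filter, 0.40 with the brightest probe, 0.10 with the median over probes, and ranged from -0.29 to 0.021 on leaving out an array (above 0 without NB_Control replicate 3 or NB_Stim replicate 1). *Dock2* in the same comparison became -0.071 with 75th percentile scaling. *Gulp1* became -0.42 (NB_Control minus NB_FACS) and -0.47 (NB_Stim minus NB_FACS) with the brightest probe, the first of these being a called value, and 0.20 (A_FACS minus NB_FACS) with the median over probes and -0.86 to 0.39 on leaving out an array (0.39 without A_FACS replicate 1). *Axl* in A_FACS minus NB_FACS ranged from -2.31 without A_FACS replicate 2 to 0.51 without A_FACS replicate 1. The sign of *Gulp1* changed with the probe chosen and with 1 array left out, and the cause of these changes was not tested. Differences in dim probes, such as those of *Gulp1*, *Timd4*, *Axl* probe 2 and *Elmo1* probe 1, are limited by signal over background.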
